A study of Mus musculus with 23 samples.

Results

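A set of 10 genes that mark macrophages in mouse tissue was followed in the gastrocnemius of trained and sedentary mice. They were Adgre1, Csf1r, Cd68, Lyz2, Mrc1, Cd163, Marco, C1qa, C1qb and Trem2. The members were a named list, matched to the arrays through the RefSeq accession of each probe. All 10 had a probe and passed the filter on dim probes, so they were 10 of the 23865 features tested.

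Male C57BL/6J mice were 24 months old (old) or 5 months old (adult) when training began, and were trained daily for 4 weeks in single housing. The 6 groups were the old mice under HIIT, the old mice under MICT and the old controls, then the adult mice under HIIT, the adult mice under MICT and the adult controls. High-intensity intermittent training (HIIT) alternated 3 fast bouts (27 m/min, each lasting 2 min) with slow walking (5 m/min, each lasting 1 min). Moderate-intensity continuous training (MICT) kept mice at 13 m/min without a break for 45 min, and controls were placed on a treadmill that did not move. Muscle was taken after 12 h of rest. Each group had 4 mice and 1 array a mouse, except that adult MICT replicate 2 is not analysed here, which leaves 3 arrays in that group and 23 in all.

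Macrophages in skeletal muscle lie mainly in the connective tissue around fibres and vessels, where they take up debris and support repair after injury. Their survival depends on the receptor encoded by Csf1r, and their identity on the transcription factor PU.1, encoded by Spi1. Scavenger receptors bind cells, lipids and microbes for uptake, and the complement protein C1q marks cells and microbes for it. Lysosomal proteins such as Cd68 and lysozyme deal with what is taken up.

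Promoter sequence was available for 7 of the 10 genes, in RefSeq on build GRCm38.p6. The letters GAGGAA, the core recognised by factors of the PU.1 type, or their reverse complement TTCCTC were searched on both strands in the 250 bases before each start. They occurred in 5 of the 7 (Marco, Mrc1, C1qb, Cd68 and Trem2) and in 23.3% of all 32851 promoters. Of these, 4 are printed because these genes include 3 members that varied together over the arrays (Mrc1, C1qb and Trem2) and 1 that varied apart from them (Marco). Each line is the 150 bases before the start, 5′ to 3′ in the direction of the gene, with the match in capitals. Marco lies at chr1:120505025-120505174 on the minus strand, with the match at -146 from the start.
Marco: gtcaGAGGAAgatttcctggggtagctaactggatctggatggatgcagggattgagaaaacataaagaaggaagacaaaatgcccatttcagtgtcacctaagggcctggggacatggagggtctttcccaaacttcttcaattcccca
Mrc1 lies at chr2:14229264-14229413 on the plus strand, with the printed match at -35. Its other matches, at -180 and -167, fall before the printed stretch.
Mrc1: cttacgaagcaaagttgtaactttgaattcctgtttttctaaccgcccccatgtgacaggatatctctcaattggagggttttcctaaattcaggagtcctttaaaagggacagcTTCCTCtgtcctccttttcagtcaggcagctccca
C1qb lies at chr4:136886201-136886350 on the minus strand, with the match at -30.
C1qb: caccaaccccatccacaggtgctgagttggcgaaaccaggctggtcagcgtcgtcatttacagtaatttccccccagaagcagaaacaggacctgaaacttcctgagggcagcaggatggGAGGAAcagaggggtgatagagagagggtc
Trem2 lies at chr17:48346251-48346400 on the plus strand, with the match at -40.
Trem2: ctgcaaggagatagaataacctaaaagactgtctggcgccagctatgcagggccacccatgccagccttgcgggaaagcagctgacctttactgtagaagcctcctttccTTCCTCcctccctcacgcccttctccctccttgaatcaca
The match in Cd68 was at -225, and the windows of Cd163 and Lyz2 held none. A match describes the letters and is not a mapped binding site.

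Levels below are the log2 processed signal of a probe minus the 75th percentile of its array, so that 0 is the 75th percentile. They can be compared between arrays for the same gene, not between genes. A difference is in log2 units, given with the standard error of the limma fit, and is called where its Benjamini-Hochberg adjusted p over all features is below 0.05. Errors of group means are SDs, with n = 4, or n = 3 for adult MICT.

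Between 45.8% and 57.7% of gene probes were well above background on each array, and pairs of arrays correlated at 0.923 to 0.992 over the features tested. Ckm, Acta1, Myh4, Myh1, Tnnt3, Mb and Pvalb, which encode abundant proteins of skeletal muscle fibres, stood at or above the 97.7th percentile of every array. The arrays lay on 3 slides. Slide 1 held adult HIIT and adult control arrays, slide 2 held adult MICT and old control arrays, and slide 3 held old HIIT and old MICT arrays. Only adult HIIT against adult controls and old HIIT against old MICT are therefore free of the slide. In the other comparisons the slide and the groups cannot be told apart. A model of age, regimen and slide has as many terms as there are groups, and its MICT term uses no old control array, so it gives no separate value for them.

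Several arrays stood apart in genes of other cells, scored as the mean deviation in log2 units over a list of markers, with the adult controls as the zero. For genes of B and plasma cells the old controls 1 to 4 scored 6.05, 4.62, 2.54 and 1.43, and adult controls -0.18 to 0.24. For neutrophil genes old HIIT 1 scored 4.75 and old control 4 scored 6.27, with 0.34 to 1.05 in the other old controls. Cell division genes scored 4.70 on old control 4, with 1.74 to 2.67 in the other old controls, and 2.38 on adult control 2, with -1.30 to 0.04 in the other adult controls. Old controls 1, 2 and 4 and adult control 2 are named wherever a result rests on them.

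Most members had their highest group mean in the old controls. The mean was highest there for 9 of 10 members, with Cd163 the exception. For Trem2, Lyz2 and Cd68 this rested on old control 4. Without that array, the old control mean was below old HIIT for Trem2 and Lyz2, and below adult HIIT for Cd68. The mean was lowest in old MICT for 6 members (Adgre1, Csf1r, Cd68, Lyz2, Mrc1 and Trem2). When the 6 groups were ordered by their mean, neighbouring groups overlapped for every member except at 1 step, between old HIIT and old MICT for Marco. The plot of members by group gives every array.

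**Figure D1:**
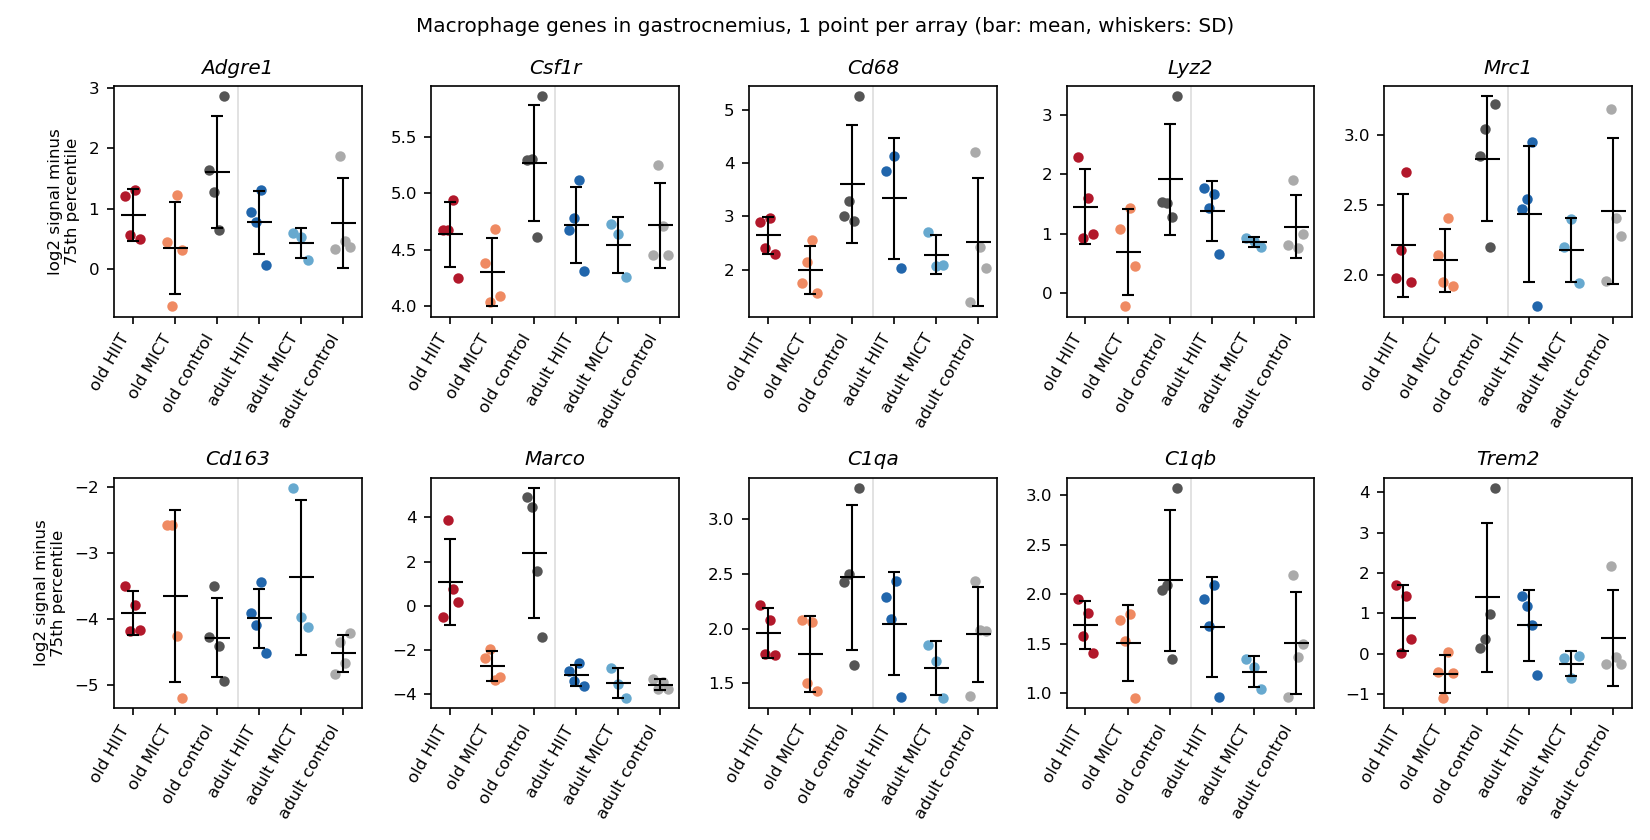
Level of each of the 10 members on every array (log2 processed signal minus the array's 75th percentile), in 6 groups; points are arrays, and the bar with whiskers is the group mean ± SD. Marco stands between -1.42 and 4.94 in old controls and between -3.79 and -3.30 in adult controls, whereas the other 9 members overlap between these groups.

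Old MICT muscle, on slide 3, was compared with old control muscle, on slide 2, at 25 months. Continuous running and slide cannot be told apart in it. Of the 10 members 7 were called lower in old MICT, namely Csf1r, Marco, Lyz2, Adgre1, Cd68, Trem2 and Mrc1. The median of the 10 log2 differences was -1.10, beside 0.20 over all features. C1qa and C1qb were lower without passing the test, and Cd163 was not lower. Of all features, 8.96% were called lower in this comparison, 21.7% higher and 30.7% in either direction. In bulk muscle, fewer macrophages and less RNA per macrophage cannot be told apart.

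Csf1r, the receptor for the growth factors encoded by Csf1 and Il34, read 4.38, 4.03, 4.69 and 4.09 in old MICT, against 5.30, 5.30, 4.61 and 5.86 in old controls. Old control 3 fell within the range of old MICT, and the other controls stood above it. Csf1r was 1.96-fold lower in old MICT (difference -0.97 ± 0.24, adjusted p = 0.0081, limma). It was called without any single array, with differences of -1.19 to -0.77. A second probe gave -0.81 ± 0.23 (adjusted p = 0.0148), whereas the remaining one gave -0.09 ± 0.15 (adjusted p = 0.661), so the probes of Csf1r disagreed.

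Adgre1, an adhesion-type receptor on mouse macrophages, read 0.45, -0.62, 1.23 and 0.31 in old MICT, against 1.65, 1.27, 0.64 and 2.86 in old controls. The groups overlapped through old MICT 3 and old control 3. Adgre1 was 2.4-fold lower (difference -1.26 ± 0.43, adjusted p = 0.0340), and its second probe gave -1.24 ± 0.42 (adjusted p = 0.0329).

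Cd68, a glycoprotein of the late endosome and lysosome, read 1.74, 2.14, 2.56 and 1.55 in old MICT, against 3.0, 3.29, 2.91 and 5.24 in old controls. The groups did not overlap, and old control 4 stood far above the others. Cd68 was 3.05-fold lower (difference -1.61 ± 0.55, adjusted p = 0.0348).

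Lyz2, the lysozyme of macrophages and neutrophils, read 1.09, -0.22, 1.44 and 0.47 in old MICT, against 1.54, 1.52, 1.29 and 3.31 in old controls. Old MICT 3 stood above the lowest control. Lyz2 was 2.34-fold lower (difference -1.22 ± 0.42, adjusted p = 0.0339). Lyz1 is nearly identical in sequence to Lyz2, so that the signal of this probe may hold both.

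Among the scavenger receptors, Mrc1, the mannose receptor of resident macrophages, read 2.14, 1.95, 2.41 and 1.92 in old MICT, against 2.85, 3.05, 2.20 and 3.22 in old controls. It was 1.65-fold lower (difference -0.72 ± 0.27, adjusted p = 0.0461), with old control 3 inside the range of old MICT. Marco, a receptor for microbes and particles known from macrophages of the spleen, lymph nodes and lung, read -2.38, -1.96, -3.36 and -3.25 in old MICT, against 4.94, 4.47, 1.57 and -1.42 in old controls. Every control was above every old MICT array, but the controls ranged over more than 6 log2 units. Marco was 34.9-fold lower (difference -5.12 ± 1.00, adjusted p = 0.00357) and was called without any single array, with differences of -6.39 to -4.27. Cd163, the receptor that takes up haemoglobin bound to haptoglobin, was dim, well above background on 16 of 23 arrays. It averaged -3.66 ± 1.30 in old MICT and -4.28 ± 0.59 in old controls (difference 0.63 ± 0.52, adjusted p = 0.350).

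C1qa and C1qb encode chains of C1q, which starts the classical complement pathway and is made in tissues largely by macrophages. C1qa averaged 1.77 ± 0.35 in old MICT and 2.47 ± 0.66 in old controls (difference -0.70 ± 0.29, adjusted p = 0.067). C1qb averaged 1.51 ± 0.39 in old MICT and 2.14 ± 0.71 in old controls (difference -0.63 ± 0.31, adjusted p = 0.118). Neither passed the test. Trem2, a receptor for lipids and dying cells on macrophages and osteoclasts, read -0.46, -1.09, 0.04 and -0.48 in old MICT, against 0.15, 0.36, 0.97 and 4.10 in old controls. It was 3.71-fold lower (difference -1.89 ± 0.69, adjusted p = 0.0439). The groups did not overlap, but 3 of the controls lay within 1 log2 unit above the highest old MICT array and old control 4 far above. For 3 members (Cd68, Marco and Trem2) every old MICT array was below every old control, as for 5.81% of all features.

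Most of these calls rested on single arrays. Without old control 4, 2 members were called (Csf1r at -0.77, adjusted p = 0.0264, and Marco at -6.39, adjusted p = 0.00118), and the adjusted p of the other 5 was 0.122 to 0.170, with Trem2 at -0.99. The same 2 were called without old MICT 2 and without old MICT 4. Without old MICT 1 there were 3 (Csf1r, Lyz2 and Marco), and without old control 2 there were 4 (Csf1r, Lyz2, Marco and Trem2). Over the 23 fits that each left out 1 array, Mrc1 was called in 9, Adgre1 and Trem2 in 17, Cd68 in 18 and Lyz2 in 20. Without both old controls 1 and 2, which carried the highest lymphocyte scores, 1 member was called (Trem2 at -3.04 ± 0.76, adjusted p = 0.0485), and Marco was at -2.81 ± 0.88 (adjusted p = 0.0794). With only these groups in the fit, 0 members and 0 features were called. Of the 7321 features called, 70.8% were higher in old MICT, and under quantile scaling 56.3% of 5468 were higher, with the median of all features moving to 0.06. Under quantile scaling 7 members were again called lower, with C1qa in place of Trem2.

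**Figure D2:**
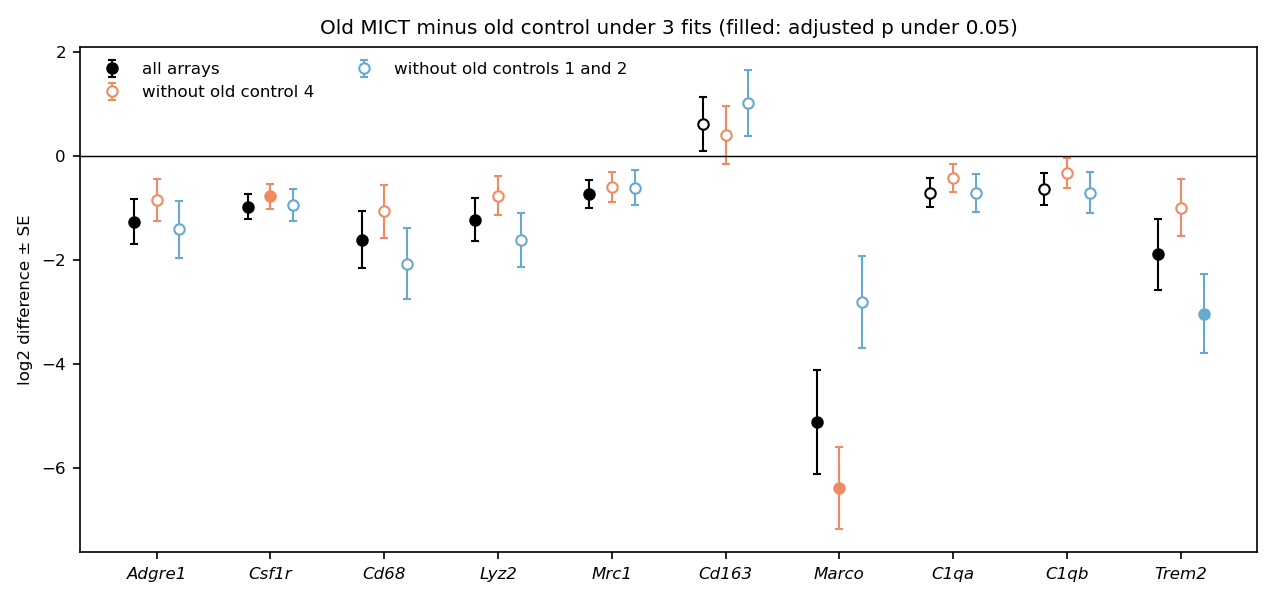
Log2 difference of each member, old MICT minus old controls, with its standard error, under 3 fits (all arrays, without old control 4, and without both old controls 1 and 2); filled points passed the test. Marco lies between -6.39 and -2.81 in these fits, and Trem2 between -3.04 and -0.99.

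Other cells' genes moved with this comparison. Of 5 B and plasma cell genes tested 4 fell in old MICT, of 6 T and NK cell genes 3, of 5 dendritic cell genes 4, of 5 mast cell genes 2, of 5 cell division genes 5 and of 5 fibroblast genes 3, with 1 fibroblast gene higher. Of 7 osteoclast genes 1 rose and 1 fell, of 7 muscle fibre genes 1 rose, and of 6 adipocyte and 4 endothelial genes 0 were called. The mean neutrophil score ranged from 0.03 to 3.48 in old MICT and from 0.34 to 6.27 in old controls, with 0 of 9 genes called. Genes of B and plasma cells scored 0.15 to 1.19 in old MICT and 1.43 to 6.05 in old controls. Cd79a, Cd3g and Cd8a, which define B and T cells, were not well above background on any old MICT array. The part of these cells in the members' differences was not tested.

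Old control muscle, on slide 2, was compared with adult control muscle, on slide 1, so age and slide cannot be told apart. Marco was higher in old controls and was the only member called. All 10 members had a positive difference, with a median of 0.71 beside -0.15 over all features, of which 4.54% were called higher, 9.08% lower and 13.6% in either direction. Marco read 4.94, 4.47, 1.57 and -1.42 in old controls, against -3.30, -3.79, -3.46 and -3.77 in adult controls. The adult controls were tightly grouped and the old ones were not. The groups still did not overlap (as for 4.36% of features that were higher in old controls). Marco was 62.5-fold higher in old controls (difference 5.97 ± 1.00, adjusted p = 0.00418).

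Marco was called without any single array, at 5.12 to 7.24. Without both old controls 1 and 2 it was at 3.65 ± 0.88 (adjusted p = 0.10) and with only these groups fitted its adjusted p was 0.0698. On slide 2 itself, Marco was -1.42 to 4.94 in old controls and -4.16 to -2.83 in adult MICT mice, with adult MICT 4 not above background.

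The other members overlapped between old and adult controls. Cd68 read 3.0, 3.29, 2.91 and 5.24 in old controls, against 1.40, 4.21, 2.43 and 2.03 in adult controls (difference 1.09 ± 0.55, adjusted p = 0.173). Adult control 2 stood above 3 of the old controls. The same adult array was highest of its group for Adgre1, Csf1r, Lyz2, Mrc1, C1qa, C1qb and Trem2, reading for example 2.16 for Trem2, where the other adult controls read -0.27 to -0.09. Without it, 4 members were called (Adgre1, Csf1r, Cd68 and Marco), and without old control 3, 4 were called (Csf1r, C1qa, C1qb and Marco). The differences of the remaining members ran from 0.24 ± 0.52 for Cd163 to 1.01 ± 0.69 for Trem2, with Csf1r at 0.55 ± 0.24 (adjusted p = 0.114).

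In this comparison 4 of 5 B and plasma cell genes, 3 of 6 T and NK cell genes, 4 of 5 cell division genes, 3 of 6 adipocyte genes, 2 of 5 dendritic cell genes, 1 of 5 mast cell genes and 1 of 9 neutrophil genes were called higher in old controls. Of 7 osteoclast genes 1 was higher and 1 lower, and of 7 muscle fibre genes 1 was lower. Ms4a1, Cd79a, Cd3d, Cd8a, Cxcr2, Ltf, Ngp and Mpo were not well above background on any adult control array. The order of the old controls in Marco (1, 2, 3, 4 from high to low) was also their order in the B and plasma cell score. The part of these cells in the difference between old and adult controls was not tested.

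In trained mice Marco was higher in old than in adult muscle under HIIT without passing the test. Marco read -0.50, 3.9, 0.75 and 0.15 in old HIIT, against -2.96, -3.41, -2.60 and -3.66 in adult HIIT. Every old HIIT array was above every adult one, as for 3.52% of features, and the difference was 4.23 ± 1.00, or 18.8-fold (adjusted p = 0.118). Marco was called here without old control 4, an array that enters only through the shared spread. In old MICT against adult MICT, where the adult arrays read -2.83, -3.53 and -4.16, the difference was 0.77 ± 1.08 (adjusted p = 0.781). Whether these age differences differed between the regimens was not tested. No member was called in either comparison (limma), beside 0.0168% and 0.021% of all features. At an unadjusted p below 0.05 there were 1 and 0 members, beside 12.9% and 15.9% of all features. The median member difference was 0.04 under HIIT and -0.13 under MICT.

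In old HIIT muscle 9 of 10 members had lower means than in old control muscle, and none was called by limma, beside 0.557% of all features. The median difference was -0.57, beside 0.08 over all features. An unadjusted p below 0.05 was found for 2 members, near the share of 16.0% over all features. Csf1r read 4.68, 4.67, 4.94 and 4.25 in old HIIT, against 5.30, 5.30, 4.61 and 5.86 in old controls (difference -0.63 ± 0.24, adjusted p = 0.219), and it was called without old control 3 (adjusted p = 0.0414). Mrc1 read 1.98, 2.18, 2.74 and 1.95 in old HIIT, against 2.85, 3.05, 2.20 and 3.22 in old controls (difference -0.62 ± 0.27, adjusted p = 0.271). In both genes old control 3 lay among the trained mice. Marco differed by -1.31 ± 1.00 (adjusted p = 0.525) and Trem2 by -0.52 (adjusted p = 0.735). Without old control 4, Trem2 turned to 0.39 ± 0.54 and Lyz2 to 0.01 ± 0.37, and without both old controls 1 and 2 Marco turned to 1.0 ± 0.88. The median log2 difference was -1.24 over B and plasma cell genes, -1.06 over T and NK cell genes, -0.95 over cell division genes, -0.80 over mast cell genes, -0.79 over adipocyte genes, -0.71 over dendritic cell genes and 0.29 over neutrophil genes, with 0 of them called. Their part in the members' differences was not tested.

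**Figure D3:**
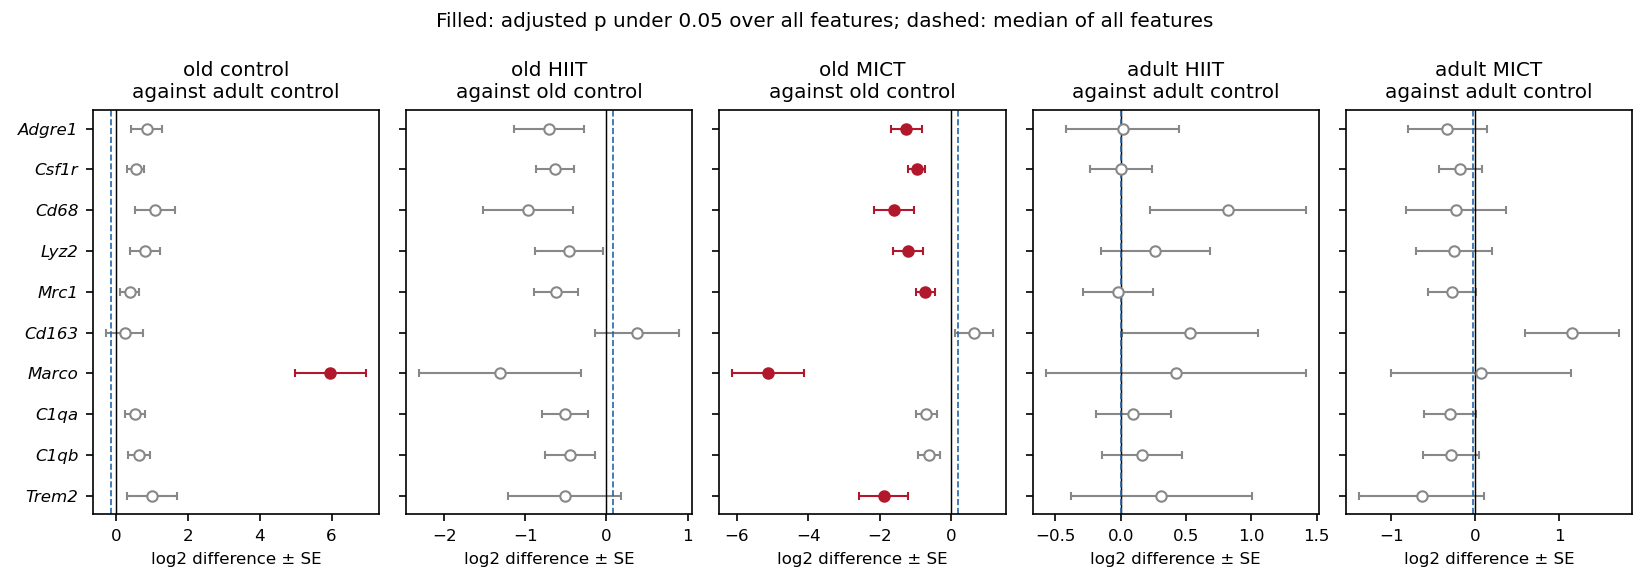
Log2 difference of each member with its standard error in 5 comparisons; filled points passed the test, and the dashed line is the median difference over all features. Filled points mark 7 members in old MICT against old controls, and Marco alone in old against adult controls.

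Old HIIT and old MICT arrays shared a slide, so this difference between regimens is free of it. Marco was again the member furthest apart, at -0.50, 3.9, 0.75 and 0.15 in old HIIT, against -2.38, -1.96, -3.36 and -3.25 in old MICT. The groups did not overlap, as for 2.6% of features that were higher under HIIT. The difference was 3.81 ± 1.00, or 14.1-fold (adjusted p = 0.221, limma). Trem2 read 1.71, 0.01, 1.43 and 0.37 in old HIIT, against -0.46, -1.09, 0.04 and -0.48 in old MICT (difference 1.38 ± 0.69, adjusted p = 0.318). Old HIIT 2 was just below the highest old MICT array, and the other old HIIT arrays were above all of them. Under HIIT 9 of 10 members were higher, with a median of 0.45 beside -0.09 over all features. None passed the test, nor did any feature (0%), with 1 member and 16.8% of all features at an unadjusted p below 0.05. Genes of B and plasma cells scored 1.35, 4.30, 1.35 and 1.45 in old HIIT and 0.15 to 1.19 in old MICT. Its part in the Marco difference was not tested.

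In adult mice no member was called by limma under either regimen, nor was any feature (0%). Against adult controls 9 of 10 members were higher under HIIT, with a median of 0.22, and 8 of 10 were lower under MICT, with a median of -0.26, beside 0.00 and -0.02 over all features. Without adult control 2 the 8 members that were lower under MICT lay between -0.14 for C1qa and 0.33 for Cd68. The smallest adjusted p of a member under HIIT was 0.929. Cd68 read 3.85, 4.12 and 2.04 in adult HIIT, where the spot of replicate 3 was marked as an outlier and left out, against 1.40, 4.21, 2.43 and 2.03 in adult controls (difference 0.82 ± 0.60). These ranges overlapped. Cd163 read -2.01, -3.97 and -4.13 in adult MICT, against -4.84, -4.36, -4.67 and -4.22 in adult controls. The groups did not overlap, as for 1.74% of features higher in adult MICT, and the difference was 1.15 ± 0.56 (unadjusted p = 0.0535, adjusted p = 1.0). Adult controls 1 and 3 were not above background for Cd163. Adult HIIT and adult MICT differed with a median of 0.38 over the members, and none was called. At an unadjusted p below 0.05 there were 0 members in each of the 3 adult comparisons, and 1200 features for HIIT against controls, 507 for MICT against controls and 1852 for HIIT against MICT.

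Whether a regimen acted differently at the 2 ages was tested as the response of old mice minus that of adult mice. All 10 members were negative for both regimens, with medians of -0.86 for MICT and -0.68 for HIIT, beside 0.21 and 0.09 over all features. For MICT the difference between the responses was -5.19 ± 1.47 for Marco (adjusted p = 0.0806) and -0.79 ± 0.35 for Csf1r (adjusted p = 0.168), beside 0.83% of features called. Marco passed the test without old control 3 and without old control 4. For HIIT it was -1.78 ± 0.81 for Cd68 (adjusted p = 0.436) and -1.73 for Marco (adjusted p = 0.613), beside 0% of features called. No member was called by limma in either, with 2 members at an unadjusted p below 0.05 for MICT, beside 25.8% of all features, and 1 for HIIT, beside 11.2%. The MICT and HIIT comparisons share their controls.

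Of the members, 8 varied together over the arrays, apart from Marco and Cd163. The 28 pairs of Adgre1, Csf1r, Cd68, Lyz2, Mrc1, C1qa, C1qb and Trem2 had Pearson correlations of 0.638 to 0.965 over the 23 arrays, and 0.559 to 0.964 over deviations from group means. Without old control 4 they were 0.528 to 0.943. C1qa and C1qb gave the highest of them. Marco correlated with these 8 at 0.105 to 0.364, and at -0.691 to 0.016 within groups. Cd163 correlated with them at -0.247 to 0.069. The points share slides and depth of signal, so that these values are a description.

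The order of the arrays in Marco differed from their order in the 8. In deviations averaged over the 8, old control 4 was at 1.94, old controls 1 and 2 were at 0.44 and 0.50, and adult control 2 was at 0.98. Marco correlated at 0.957 with the B and plasma cell score and at 0.952 with the T and NK cell score, and at 0.898 and 0.915 within groups. It also correlated at 0.845 with the dendritic cell, 0.706 with the mast cell and 0.667 with the adipocyte score. With the muscle fibre score it was at -0.486. Trem2 correlated at 0.093 with the B and plasma cell score (-0.565 within groups), at 0.529 with the neutrophil score and at 0.842 with the cell division score. Its values were 0.671 with the osteoclast, 0.639 with the fibroblast and -0.287 with the mast cell score. With the cell division score all of the 8 correlated at 0.700 (Mrc1) to 0.842 (Trem2), with C1qa at 0.791. Within groups these values were 0.713 (Lyz2) to 0.953 (Cd68).

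**Figure D4:**
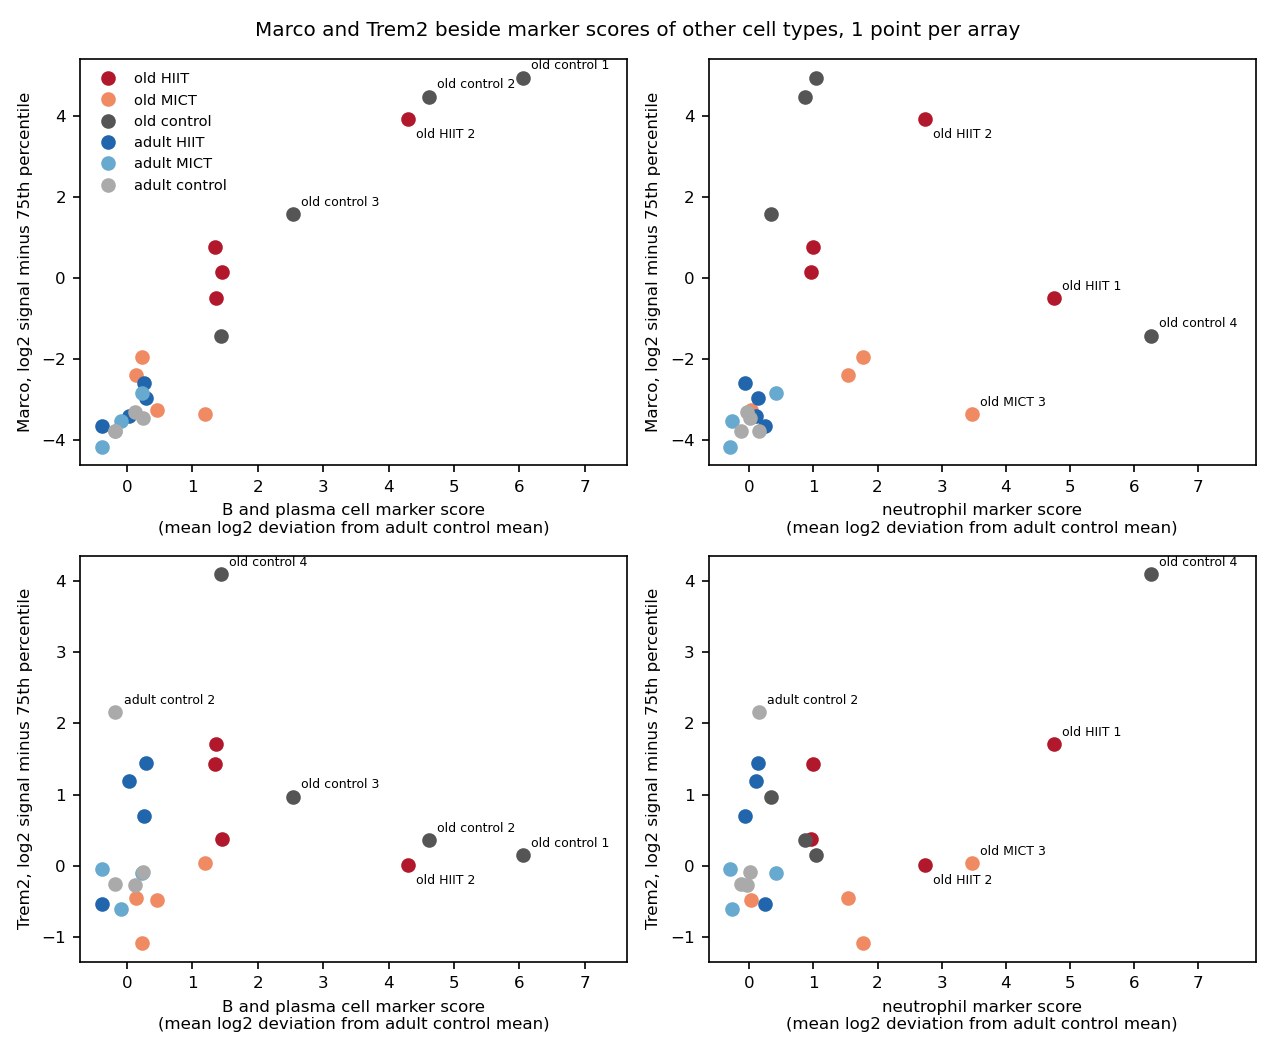
Marco (upper panels) and Trem2 (lower panels) on every array, in log2 units, against the B and plasma cell score and the neutrophil score, in log2 units from the mean of the adult controls; colours are the 6 groups. Marco rises along the B and plasma cell score (r = 0.957), and Trem2 is highest in old control 4, where the neutrophil score is 6.27.

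The likeness of genes outside the list was measured by the Pearson correlation over the 23 arrays. The gene most like Adgre1 was Tyrobp (r = 0.953), and it was Ctsh for Csf1r (0.946), Fcer1g for Cd68 (0.943, 22 arrays) and Hk3 for Lyz2 (0.912). For Mrc1 it was F13a1 (0.936), for C1qa and C1qb it was C1qc (0.964 and 0.953), the remaining chain of C1q, and for Trem2 it was C3ar1 (0.930), the receptor for the complement fragment C3a. Marco was most like Gimap3 (0.962), of a family of GTP-binding proteins of lymphocytes, and its best member was Csf1r at 0.364. Cd163 was most like Lbp (0.847), which encodes the lipopolysaccharide-binding protein, and its best member was C1qb at 0.069. The features most like the mean of the members were Ctss and H2ac23 (0.966 each), Lockd (0.958), Cdca5 (0.953) and Nckap1l (0.949), among which Ctss encodes a lysosomal protease, H2ac23 a histone and Cdca5 a protein of sister chromatid cohesion.

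The wider macrophage pathway was counted over 5 lists with 67 genes, of which 62 were tested. In old MICT against old controls 23 fell and 2 rose, with a median of -0.77 beside 0.20 over all features. Of all features, 8.96% were called lower and 21.7% higher there. In old against adult controls 10 were higher and 1 lower, with a median of 0.53 beside -0.15. Of all features, 4.54% were called higher and 9.08% lower there. The counts by list below stand beside the same shares. In the other 9 comparisons 0 were called by limma. At an unadjusted p below 0.05 there were 13 for the MICT response, 11 for old HIIT against old controls, 10 for old HIIT against old MICT and 0 to 7 in the other 6. The first 3 are 21.0%, 17.7% and 16.1% of the 62 genes, beside 25.8%, 16.0% and 16.8% of all features, so they lie near the background. The old MICT count was 13 lower and 1 higher without old control 4, 14 and 1 without old MICT 1 or without old control 2, and 15 and 1 without old MICT 2. It was 2 lower and 0 higher without both old controls 1 and 2. The age count rested on single arrays more closely: it was 1 higher and 0 lower without old control 2 or without any of adult controls 1, 3 or 4, 2 and 0 without old control 1, 7 and 0 without old control 4, 20 and 2 without adult control 2, and 21 and 1 without old control 3. It was 0 without both old controls 1 and 2.

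Of 15 genes of resident macrophages, 6 fell in old MICT. Folr2, a folate receptor of resident cells, read 0.80, 0.93, 1.78 and 1.32 in old MICT, against 2.36, 2.72, 1.82 and 2.99 in old controls (difference -1.27 ± 0.27, adjusted p = 0.0050). No old MICT array reached the controls. Timd4, a receptor for phosphatidylserine on dying cells, differed by -2.31 ± 0.55, the chemokine Ccl24 by -1.13 ± 0.29 and the scavenger receptor Stab1 by -0.82 ± 0.24. Timd4 was also higher in old than in adult controls (1.88 ± 0.55, adjusted p = 0.0324). Both differences of Timd4 rested largely on old controls 1 and 2. These read 0.88 and 0.72, while the other old controls read -1.95 and -2.41. Cbr2, a carbonyl reductase, was lower in old controls (-0.57 ± 0.19, adjusted p = 0.0467).

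Of 8 genes of the CSF1 axis and lineage factors, 4 fell in old MICT and 1 rose. The ligands of Csf1r were both lower, Csf1 by -0.66 ± 0.22 (adjusted p = 0.0301) and Il34 by -0.54 ± 0.18 (adjusted p = 0.0293). Cx3cr1, the fractalkine receptor of monocytes and macrophages, read -2.31, -3.25, -0.95 and -2.92 in old MICT, against 0.83, -0.01, -0.16 and 2.21 in old controls (difference -3.07 ± 0.68, adjusted p = 0.0056). Irf8, a factor of monocyte development, differed by -0.87 ± 0.30, and was higher in old than in adult controls by 1.07 ± 0.30 (adjusted p = 0.0267). Cebpb, a transcription factor of myeloid cells that many other cells also use, rose to 6.87, 6.21, 4.81 and 4.68 in old MICT, against 3.88, 3.88, 4.03 and 4.18 in old controls (difference 1.65 ± 0.38, adjusted p = 0.0062). Old MICT 1 and 2 were the highest.

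Of 17 complement and phagocytosis genes, 6 fell in old MICT and 3 were higher in old than in adult controls. Cd5l, a secreted protein of tissue macrophages, was not well above background on any old MICT, adult HIIT, adult MICT or adult control array. Old MICT was at least 11.9-fold lower for it, set against old controls (adjusted p = 0.0059), and old controls were at least 12.2-fold higher, set against adult controls (adjusted p = 0.0212). These bounds set the mean of the bright group against that of the dim group, where each dim array counts at its own signal or at its dimmest signal above background, whichever is higher. Siglec1, a sialic acid receptor of macrophages, differed by -2.26 ± 0.60 in old MICT and by 1.83 ± 0.60 in old against adult controls. For the integrin gene Itgb2 these differences were -1.55 ± 0.44 and 1.5 ± 0.44. Tyrobp, the signalling partner of Trem2, differed by -1.38 ± 0.39 in old MICT (adjusted p = 0.0148).

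Of 11 genes of lysosomes and lipid-associated macrophages, 5 fell and 1 rose in old MICT, and 4 were higher in old than in adult controls. These comparisons share the old controls. Fabp5, a fatty acid binding protein, read 2.25, 2.25, 3.16 and 3.05 in old MICT, against 4.71, 6.09, 4.17 and 5.42 in old controls (difference -2.42 ± 0.36, adjusted p = 0.0015). The groups were more than 1 log2 unit apart at their nearest. Apoe, an apolipoprotein, differed by -1.17 ± 0.29 in old MICT and by 1.06 ± 0.29 in old against adult controls. In the same order, the protease gene Ctss differed by -1.93 ± 0.50 and 1.79 ± 0.50, and the galectin gene Lgals3 by -1.85 ± 0.56 and 2.59 ± 0.56. Fabp5 was higher in old than in adult controls by 1.47 ± 0.36 (adjusted p = 0.0190, limma). Lamp1, a lysosomal membrane protein of most cells, rose in old MICT by 0.31 ± 0.11 (adjusted p = 0.0438), beside a median of 0.20 over all features.

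Of 11 monocyte and inflammatory genes, 2 fell in old MICT, Tgfb1 by -1.16 ± 0.30 (adjusted p = 0.0106) and Tnf, which was at least 2.16-fold lower (adjusted p = 0.0199). Tnf was higher in old than in adult controls (1.71 ± 0.43, adjusted p = 0.0186), but it was well above background on 3 of 4 old control arrays and on 1 of 4 adult control arrays. In old HIIT against old controls the genes of these lists with the smallest unadjusted p were Timd4 (-1.72, adjusted p = 0.155), Irf8 (-0.79, adjusted p = 0.222), Itgb2 (-1.03, adjusted p = 0.266), Cd63 (-0.29, adjusted p = 0.289) and Tnf (-1.06, adjusted p = 0.243). All were lower in old HIIT and none passed the test, and the median over the 62 genes was -0.49. On the shared slide, Fabp5 was higher in old HIIT than in old MICT by 1.74 ± 0.36 (adjusted p = 0.221), and its MICT response was lower in old than in adult mice by -2.14 ± 0.54 (adjusted p = 0.0577). Neither difference passed the test.

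**Figure D5:**
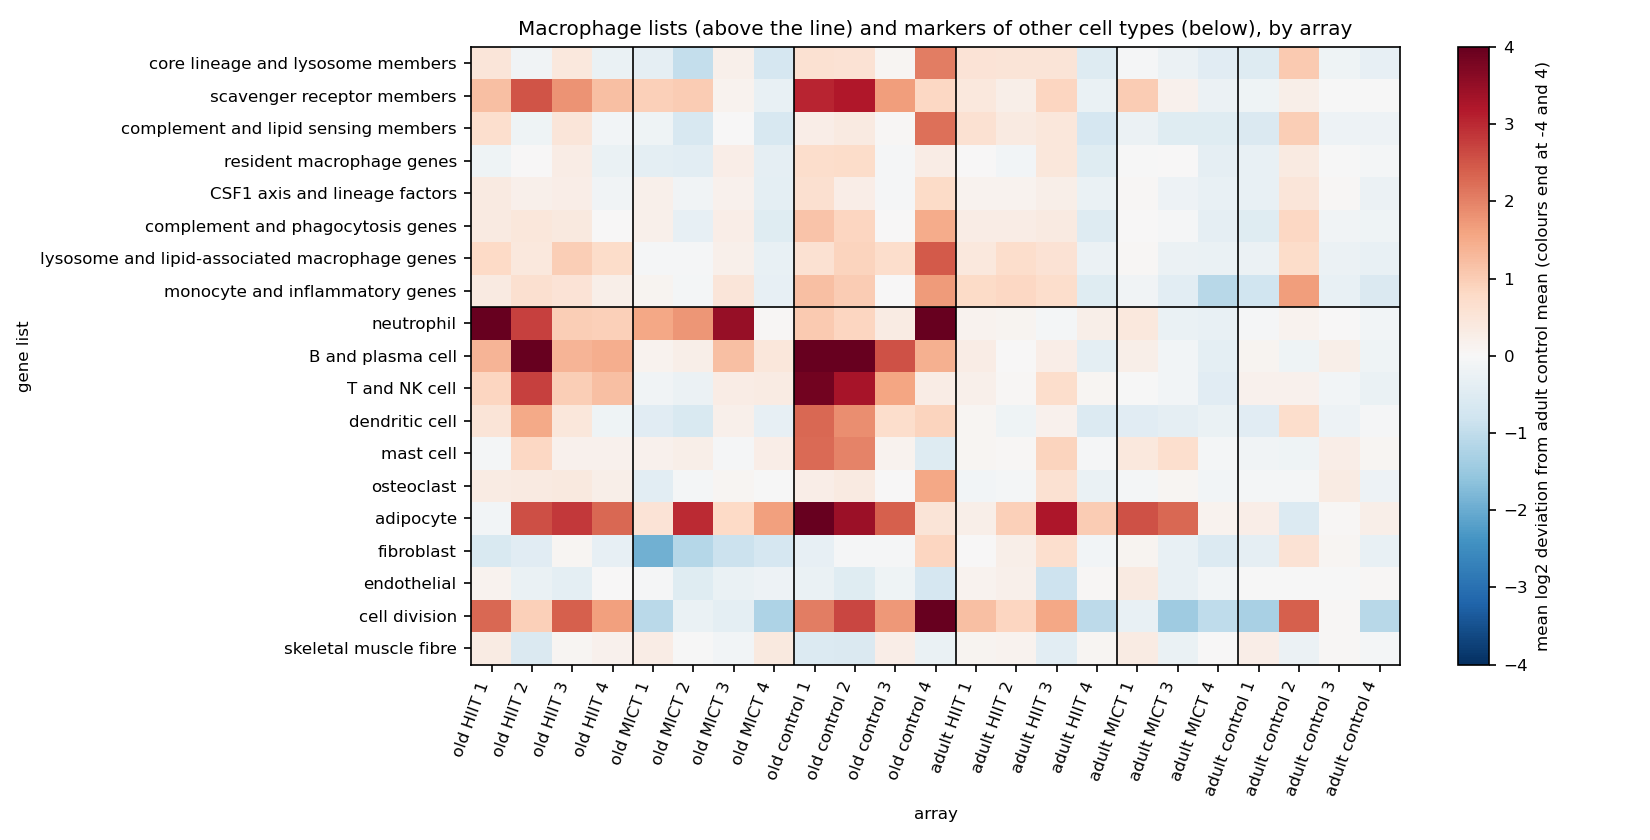
Heat map of the mean deviation, in log2 units from the mean of the adult controls, of each member list, pathway list and marker list (rows) on the 23 arrays (columns, by group); the colours end at -4 and 4. Old controls 1 and 2 stand out in the lymphocyte rows and old control 4 in the neutrophil and cell division rows.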

How the data were processed

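RNA from 23 gastrocnemius samples was hybridised to 1-colour Agilent arrays (Cy3). The deposited scanner files hold intensities; per the file headers, Agilent's Feature Extraction software had already subtracted background from the processed signal and marked spots well above background. From these, log2 processed signal minus each array's 75th percentile was computed, without control spots, with spots marked as outliers set to missing (1 array for Cd68). Probes well above background on at least 3 arrays were kept (32205 of 55681), and the brightest probe stood for a gene. Probes were named through the RefSeq accession in the files (28331 of 29786 accession probes matched). The deposited value table of the series holds a score that correlated with the log10 signal at 0.9995 or above on each array; its column medians were -0.4 to -0.2, and its centring is unknown. It served as an alternative.

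The 6 group means were fitted with limma 3.58.1 in R 4.3.3 (trended empirical Bayes, two-sided, 17 residual degrees of freedom), with 11 contrasts and Benjamini-Hochberg adjustment over 23865 features. The number of arrays limits the precision. The fitting code was tested on simulated data. No replicate pair was identical. Replicate numbers were not used as pairs in the main fit. Of 55 same-numbered pairs 20 correlated above 0.1 in their deviations from group means (median 0.042). Of 165 differently numbered pairs 39 did (median -0.025). These counts do not settle whether the numbers pair the samples.

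The members and lists were chosen with earlier results of these data known. Named besides the members were, of each pathway list, at most 4 called genes per direction, or, where none was called, the gene with the smallest p. Alternatives covered background correction, scaling, filter, probe, variance model, samples fitted, slide, replicate block and each array left out.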

Additional observations from a re-analysis of the deposited data

Results flagged for a closer look

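In 4 member and group sets there was an array far from the rest of its group by Dixon's ratio, of 49 sets of 4 arrays examined, where chance gives about 1 in 20, or 2.45 sets. Adult control 2 read 1.88 for Adgre1 and 2.16 for Trem2, above the other adult controls. Old control 4 read 5.24 for Cd68 and 3.31 for Lyz2, above the other old controls. The same arrays carried high cell division scores (2.38 in adult control 2 and 4.70 in old control 4), and old control 4 a neutrophil score of 6.27. The part of these cells in the values was not tested.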

How the results depend on the processing

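The slide as a random block could not be fitted, because every slide is a sum of whole groups. In old MICT against old controls (7 members called), 2 were called with array weights, 0 with only these groups fitted, 0 in the additive model with slide, 1 without both old controls 1 and 2, 2 without old control 4 and old HIIT 1, 2 without old control 4 and adult control 2, and 2 to 9 with each array left out. The additive model of age, regimen and slide has as many terms as groups: its MICT term (0.18 for Cd68, -3.39 for Marco) is adult HIIT minus adult controls less old HIIT minus old MICT, without any old control, and its age term (2.5 for Marco) is the same for every regimen, so its counts do not test these comparisons. In old against adult controls (1 called), the counts were 2, 0, 0 and 0 for the same first 4 settings, and 1 to 4 with each array left out. In old against adult HIIT mice (0 called), Marco was the 1 member called with array weights, without both old controls 1 and 2, without old control 4 and old HIIT 1, and without old control 4 and adult control 2, and counts were 0 to 1 with each array left out. In the MICT response (0 called), Marco was the 1 member called with array weights, with the replicate number as a block, without old control 4 and old HIIT 1, and without old control 4 and adult control 2, with 0 to 1 by array left out. In old HIIT against old controls the range was 0 to 1. The other 6 comparisons called 0 members in every setting. The setting that leaves out old control 4 and adult control 2, and the one that keeps marked spots, were chosen after seeing the data. The replicate block moved the features called in old MICT against old controls to 7446 (7321 without it) and in old against adult controls to 3395 (3251 without it), and 7 of 23 arrays correlated best with their own number. Over all features, old against adult controls gave 2119 calls with normexp, 7384 with array weights, 39 with only these groups, 0 in the additive model and 23 without both old controls 1 and 2. Old MICT against old controls gave 4204 with normexp, 4105 from the deposited value table (54.9% higher), 4834 with a fold of at least 1.5 (59.8% higher) and 413 without both old controls 1 and 2. Old HIIT against old controls (133 calls) gave 0 with normexp, 64 with quantile scaling, 0 with only these groups and 11 without both old controls 1 and 2, and the MICT response (198 calls) gave 0 with normexp and 2104 with array weights. The causes were not tested. Signal limits Cd163, near background on 7 of 23 arrays.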
